A study of Homo sapiens with 6 samples.

Results

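The 9 genes described here encode regulators of epithelial or mesenchymal cell state: the transcription factors ZEB1, ZEB2, SNAI1, SNAI2 and PRRX1, which act on the mesenchymal side, and ELF3, GRHL2, ESRP1 and OVOL1, which act on the epithelial side. They were taken by gene symbol from 6 RNA sequencing libraries that list 17646 genes, and each symbol matched 1 row. The cells were MDA-MB-231, an established human line of triple negative breast cancer (no estrogen receptor, progesterone receptor or HER2 amplification) with a mesenchymal shape. They were harvested 48 h after transfection with a control siRNA (siControl, 3 libraries) or an siRNA against USP32, a ubiquitin-specific protease (siUSP32, 3 libraries). The labels name no second siRNA and no rescue. Separate cultures are not stated for the libraries within a group, so the p-values may rest on technical spread alone.

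In the epithelial-mesenchymal transition, epithelial cells lose cell-cell junctions and gain motility. ZEB and SNAIL proteins drive it by binding E-box motifs in genes such as CDH1, which encodes E-cadherin, and repressing them, while PRRX1 is a homeobox factor of mesenchyme that can act in the same direction. On the opposing side, GRHL2 activates junction genes, OVOL1 and GRHL2 repress ZEB1, ELF3 is an ETS-family factor of epithelia, and ESRP1 is an RNA-binding protein that produces the epithelial splice forms of transcripts such as those of CD44 and FGFR2. Breast cancer lines of the mesenchymal type, to which MDA-MB-231 belongs, are known for ZEB1 expression and for low E-cadherin.

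FPKM values, that is fragments divided by transcript length and by library size, are given. Levels can thus be compared between genes, but only within the uncertainty of the transcript lengths the authors used, which are not stated. Differences are siUSP32 minus siControl on the log2(FPKM + 1) scale, which understates changes of low genes, and a gene was called when its Benjamini-Hochberg adjusted p from limma was under 0.05. Folds are ratios of mean FPKM. USP32 itself fell 3.96-fold, from 7.77 ± 0.479 to 1.96 ± 0.0723 FPKM (SD, n = 3 each). The libraries differed broadly: 8957 of 12003 tested genes were called (74.6%), 4001 higher (33.3%) and 4956 lower (41.3%). The FPKM of all genes summed to 686376 to 694831 in siControl and to 855573 to 948641 in siUSP32 libraries. Rescaling every library to the same sum, called TPM below, moved the median log2 difference of tested genes from -0.06 to -0.38. A correction for transcript length, from a curve fitted over all tested genes, moved it to 0.01. The curve is fitted to each library's deviations and subtracted, so a median close to no difference follows from the method. Small differences are therefore given with their values under other scalings, and the part of the summed level and of length in them was not tested. The read depth is unknown, so no counting interval is given.

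In siControl the markers of mesenchymal breast lines were all well expressed, while luminal and epithelial adhesion markers were mixed. VIM, which encodes vimentin, was at 1085.2 FPKM and CD44 at 425 FPKM in siControl, while CDH1 was at 0.473 FPKM and ESR1, the estrogen receptor gene, was under 1 FPKM. CAV1, AXL, MSN and PLAUR were at 300, 64.5, 87 and 44.7 FPKM in siControl. Of these 6 mesenchymal markers 2 were called higher in siUSP32 (VIM and MSN) and 4 lower, against 33.3% and 41.3% of all tested genes. CD44 was at 135 FPKM and AXL at 16.7 FPKM in siUSP32. KRT19, a luminal keratin gene, was however at 1238.7 FPKM in siControl and 933 FPKM in siUSP32. Of the other luminal markers, ERBB2, the HER2 gene, was at 12 FPKM in siControl, FOXA1 at 2.47, TFF1 at 2.33, GATA3 at 1.12 and AGR2 at 0.04. EPCAM and CLDN7, markers of epithelial adhesion, were at 10.5 and 4.71 FPKM in siControl. Leukocyte markers (6 genes) summed to 30.5 to 34.3 FPKM in siControl and to 23.7 to 29.6 FPKM in siUSP32, mostly from CD68, with PTPRC, which defines leukocytes, at 0 to 0.02 FPKM in all libraries. The 4 endothelial markers summed to 1.01 to 1.17 and to 0.440 to 0.470 FPKM, and 6 fibroblast markers to 35.5 to 37.2 and to 8.91 to 9.72 FPKM, most of it from LUM, the lumican gene. The part of other cell types in the results was not tested.

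The 9 genes spanned a wide range of levels, in the same order for the upper 4 in both groups. In siControl the order of mean FPKM was ELF3 (40.7), SNAI2 (8.57), ZEB1 (5.64), SNAI1 (2.73), ESRP1 (0.690), ZEB2 (0.600), PRRX1 (0.197), OVOL1 (0.0300) and GRHL2 (0). Neighbours in that order did not overlap between libraries, except ESRP1 and ZEB2. In siUSP32 ESRP1 (0.357 FPKM) stood below ZEB2 (0.520), again with overlap, and OVOL1 and GRHL2 overlapped at or next to 0. ELF3, an epithelial factor, was thus the most abundant of the set in this mesenchymal line and exceeded 86.7% of listed genes in siControl, against 51.4% for ZEB1. GRHL2 and OVOL1 were listed at or near 0. Of the 9, 4 passed the minimum mean of 1 FPKM used for the test (ZEB1, SNAI1, SNAI2 and ELF3). The other 5 were tested in a fit over all genes with no minimum, where 57.1% of 17637 genes were called (23.2% higher, 33.8% lower) and, of the genes under the minimum alone, 25.6% (4.31% higher, 21.3% lower).

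**Figure D1:**
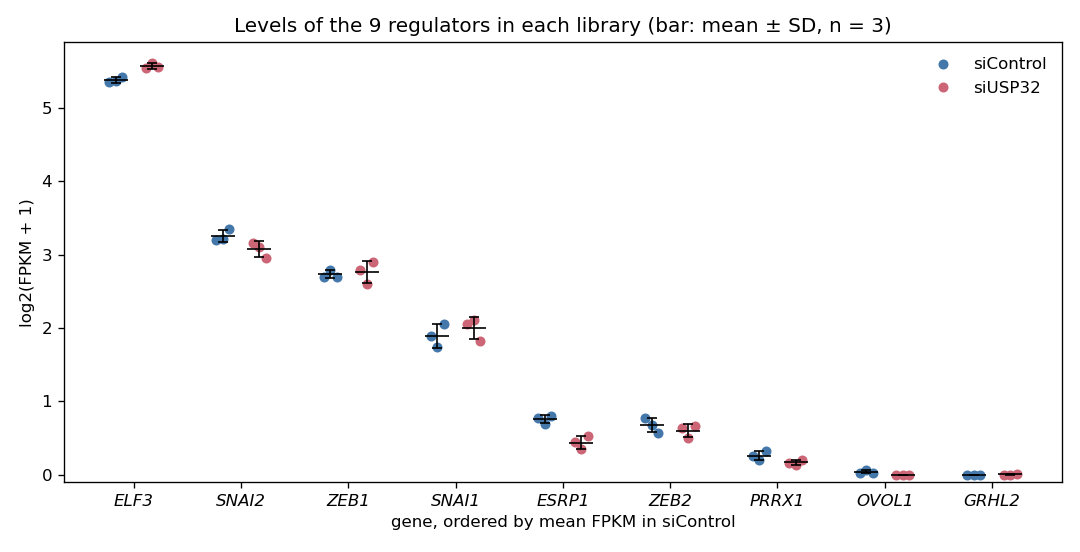
Level of each of the 9 genes as log2(FPKM + 1) in each library, with points for libraries and bars for mean ± SD (n = 3), ordered by mean FPKM in siControl. ELF3 lies highest in both groups, ESRP1 is lower in all siUSP32 libraries than in any siControl library, and ZEB1, ZEB2, SNAI1 and PRRX1 overlap between the groups.

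Of the 4 genes above the minimum 1 was called, ELF3, and of the 5 below it 1 was called, ESRP1. The shares to read these against are the 74.6% and 25.6% called among all genes of the same level classes. With the deposited values the count was thus below the background in the first class and near it in the second. This depended on scaling. By TPM ZEB1, SNAI2 and ELF3 were called in the first class, where 9185 of 12003 genes were called, and ZEB2, PRRX1 and ESRP1 in the second. The share of the second class called by TPM was not computed. Its TPM count cannot be read against the 25.6%, which is from the deposited values. Fewer cells expressing a gene and less RNA per cell cannot be told apart in these bulk libraries.

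The mesenchymal transcription factors were not called with the deposited values, and each of them was called under at least 1 alternative. ZEB1, ZEB2, SNAI2 and PRRX1 were called lower by TPM. With that scaling 7462 of 12003 tested genes were called lower, and the median of tested genes was -0.38. Relative to that median ZEB1 was at 0.10 and SNAI2 at -0.13 by TPM. For ZEB2 and PRRX1, which are under the minimum, the TPM share of their class was not computed. ZEB1 (Entrez 6935; GRCh38 chromosome 10, plus strand, bases 31318495 to 31529814), a zinc finger and homeodomain repressor, was at 5.49, 5.93 and 5.5 FPKM in the siControl libraries and at 5.95, 5.09 and 6.45 FPKM in the siUSP32 libraries. The siControl values lay inside the range of the siUSP32 values. The log2 difference was 0.04 ± 0.09 (SE), with a 95% interval of -0.16 to 0.23 (limma adjusted p = 0.711, exact permutation p = 0.6). That interval holds both no change and a change of about the size measured for ELF3, and the sign depended on scaling, with -0.28 by TPM (limma adjusted p = 0.0404) but 0.37 after quantile normalization and 0.39 with a length correction (limma adjusted p = 0.00123 and 4.21e-04). Relative to the median of tested genes in each, it was 0.10 to 0.38 higher in these 5 settings, median-ratio scaling included.

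ZEB2 (Entrez 9839; GRCh38 chromosome 2, minus strand, bases 144364364 to 144524583), its paralog with the same domain order, was less abundant. It was at 0.71, 0.6 and 0.49 FPKM in siControl and at 0.56, 0.42 and 0.58 FPKM in siUSP32, with overlap. The log2 difference was -0.07 (95% interval -0.23 to 0.08, limma adjusted p = 0.396), and it was called lower by TPM (-0.21, limma adjusted p = 0.0474). ZEB1 stood at 7.73, 9.88 and 11.2 times the ZEB2 level in siControl libraries and at 10.6, 12.1 and 11.1 times in siUSP32 libraries.

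SNAI1 (Entrez 6615; GRCh38 chromosome 20, plus strand, bases 49982999 to 49988886) encodes SNAIL, a short-lived repressor whose protein level is set largely by degradation, which RNA does not show. It was at 2.7, 2.33 and 3.17 FPKM in siControl and at 3.17, 3.33 and 2.55 FPKM in siUSP32, with overlap (log2 difference 0.11, 95% interval -0.14 to 0.35, limma adjusted p = 0.387). Processed pseudogenes exist for SNAI1 and ZEB2 and can share reads with them, so both values are uncertain. The sign depended on scaling, with -0.17 by TPM and -0.14 with the length correction (limma adjusted p = 0.158 and 0.237), and the single call among 16 alternatives was higher, after quantile normalization (0.50, limma adjusted p = 0.0023, range 0.0023 to 0.845).

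SNAI2 (Entrez 6591, chromosome 8) encodes SLUG, the family member best known in basal breast cells. It was at 8.21, 8.28 and 9.23 FPKM in siControl and at 7.97, 7.63 and 6.75 FPKM in siUSP32. All siUSP32 libraries lay below all siControl libraries, as the groups of 77.8% of tested genes did not overlap. The log2 difference of -0.18 ± 0.08 (SE) missed the threshold (95% interval, not adjusted for the number of genes, -0.358 to -0.004, limma unadjusted p = 0.0459 and adjusted p = 0.0605, exact permutation p = 0.1, the smallest that 3 against 3 libraries allow). It was called lower by TPM (-0.51), with the length correction (-0.33), with array weights (-0.23) and without siUSP32 library 1 (-0.23) or 2 (-0.20). After quantile normalization it was 0.11, with no call. Relative to the median of tested genes, SNAI2 was at -0.34 to 0.01 in the 5 settings named for ZEB1.

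PRRX1 (Entrez 5396; GRCh38 chromosome 1, plus strand, bases 170662728 to 170739419) was low, at 0.19, 0.15 and 0.25 FPKM in siControl and at 0.12, 0.1 and 0.15 FPKM in siUSP32. The groups touched at 0.15 FPKM. The siControl mean was 1.59 times the siUSP32 mean. The log2 difference was -0.09, and -0.40 with a pseudocount of 0.1, neither of them called (limma adjusted p = 0.0804 for the first, exact permutation p = 0.2), and it was called lower by TPM (-0.14), with the replicate number as a block (-0.09, limma adjusted p = 0.0469) and without siControl library 2 (-0.12).

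On the epithelial side, ELF3 (Entrez 1999; GRCh38 chromosome 1, plus strand, bases 202007945 to 202017188) rose by a small amount. It was at 39.81, 40.44 and 41.82 FPKM in siControl and at 45.53, 47.93 and 45.95 FPKM in siUSP32, so each siUSP32 library exceeded each siControl library. The rise was 1.14-fold, a log2 difference of 0.19 ± 0.05 (SE; 95% interval 0.08 to 0.30, limma adjusted p = 0.00673, exact permutation p = 0.1). Its direction was not kept by every scaling, since it was called lower by TPM (-0.18, limma adjusted p = 0.0165) and was not called after quantile normalization (0.09, limma adjusted p = 0.0979), while it was 0.32 by median-ratio scaling and 0.28 with the length correction. Relative to the median of tested genes it was -0.01 after quantile normalization and 0.20 to 0.27 in the other 4. Principal ELF3 transcripts of the annotation range from 2044 to 4994 bases with the same coding length, and which of them the authors divided by is not stated. The genes with the most similar profile over the 6 libraries, each taken minus its siControl mean, were LRRC42 and TOLLIP, at root mean square differences of 0.0196 and 0.0200 on the log2 scale, but 1139 tested genes lay within 0.1 of ELF3.

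ESRP1 (Entrez 54845, chromosome 8) fell. It was at 0.71, 0.62 and 0.74 FPKM in siControl and at 0.36, 0.27 and 0.44 FPKM in siUSP32, with no overlap, as for 29.3% of genes under the minimum. The mean fell 1.93-fold, or 2.48-fold by TPM. By TPM the log2 difference was -0.44, beside a median of -0.38 for tested genes, on a scale that understates changes of low genes. The log2 difference was -0.32 ± 0.06 (SE; 95% interval -0.45 to -0.18, limma adjusted p = 0.00235, exact permutation p = 0.1), and -0.80 with a pseudocount of 0.1. The call was lost after quantile normalization (-0.13, limma adjusted p = 0.12) and was kept in the other 14 of 15 alternatives that gave a value (limma adjusted p = 6.11e-04 to 0.12 over all 15). Both levels are under 1 FPKM, and ESRP2, its paralog, was more abundant. ESRP2 went from 5.01 ± 0.272 to 3.92 ± 0.370 FPKM (SD, n = 3), a log2 difference of -0.29 (limma adjusted p = 0.00767) that lost its call by median-ratio scaling (-0.18) and with the length correction (-0.11) and was 0.08 after quantile normalization.

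OVOL1 (Entrez 5017; GRCh38 chromosome 11, plus strand, bases 65787022 to 65797219), a zinc finger repressor of ZEB1, was at 0.02, 0.05 and 0.02 FPKM in siControl and was listed at 0 in all siUSP32 libraries. The values are within a few units of the last decimal the files give, and the difference was not called (limma adjusted p = 0.145). GRHL2 (Entrez 79977, chromosome 8), a grainyhead-like activator of junction genes, was listed at 0 in all libraries but siUSP32 library 3, where it was at 0.01 FPKM. No fold is given for either. Of their paralogs, OVOL3 (0.360 and 0.117 FPKM) and GRHL3 (0.0367 and 0.0133 FPKM) were not called. OVOL2 and GRHL1 were more abundant, OVOL2 going from 0.900 to 0.550 FPKM (limma adjusted p = 0.0239, log2 difference -0.29) and GRHL1, with overlap, from 1.89 to 1.46 FPKM (limma adjusted p = 0.0369, log2 difference -0.23). The calls of OVOL2 and GRHL1 were lost by median-ratio scaling (-0.23 and -0.15) and after quantile normalization (-0.04 and 0.13), and that of GRHL1 with the length correction (-0.08). These paralogs and ESRP2 were chosen after their values were seen.

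**Figure D2:**
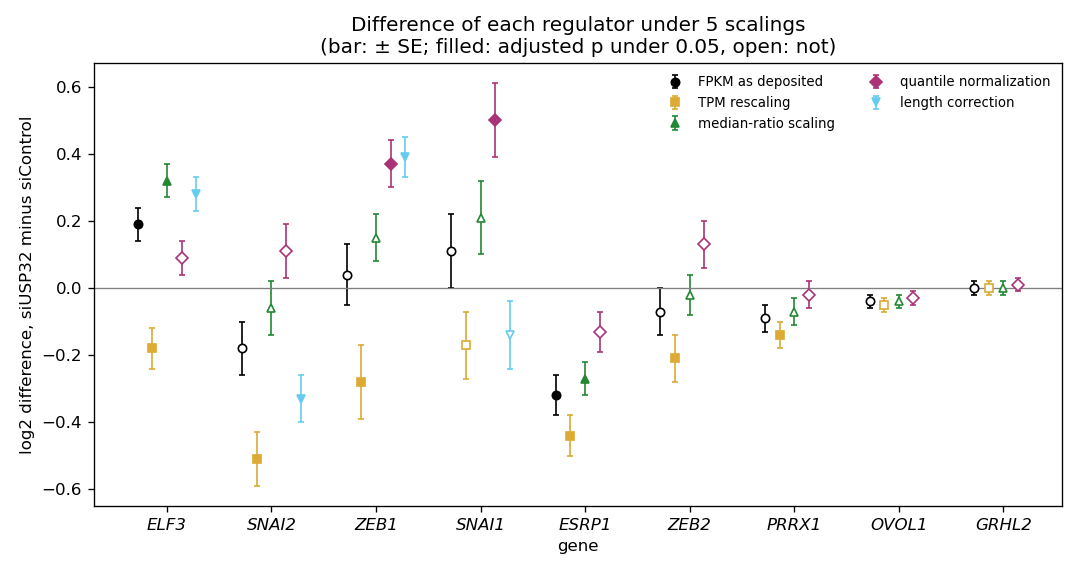
Log2 difference (siUSP32 minus siControl) of each of the 9 genes with the FPKM as deposited and under 4 other scalings, with bars of ± SE, filled symbols for calls and open symbols for none. ELF3, ZEB1, SNAI1, SNAI2 and ZEB2 lie on both sides of 0 depending on the scaling. ESRP1, PRRX1 and OVOL1 lie below 0 in all of those drawn. No length-corrected value is drawn for genes under 1 FPKM.

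Ratios between genes of the same library are unchanged by any factor per library, such as TPM or median-ratio scaling, though not by quantile normalization. Among the 6 genes at 0.2 FPKM or more in every library, 15 ratios were formed, of which 7 did not overlap between the groups. The share of ratios without overlap over all gene pairs was not computed. For single genes the groups did not overlap for 77.8% of tested genes and 29.3% of genes under the minimum. All 5 ratios with ESRP1 were among the 7, and they share this low gene, whose own groups did not overlap. ZEB1 was at 7.73, 9.56 and 7.43 times ESRP1 in siControl and at 16.5, 18.9 and 14.7 times in siUSP32 libraries, a log2 change of 1.02. ELF3 was at 56.1, 65.2 and 56.5 times ESRP1 and at 126, 178 and 104 times, a log2 change of 1.17. ESRP1 went lower against SNAI2, ZEB1, SNAI1 and ZEB2 and also against ELF3, the only other epithelial gene among the 6. The remaining separations were those of SNAI2, which went from 3.04, 3.55 and 2.91 to 2.51, 2.29 and 2.65 times SNAI1, and against which ELF3 went from 4.85, 4.88 and 4.53 to 5.71, 6.28 and 6.81 times. ELF3 and ZEB1 overlapped, at 7.25, 6.82 and 7.6 and at 7.65, 9.42 and 7.12. Each of the 7 had an exact permutation p = 0.1, the smallest possible, which was 0.214 after Benjamini-Hochberg adjustment over the 15. These ratios still carry differences in transcript length between genes.

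Promoter sequence was available in the RefSeq-based table (GRCh38.p14) for 4 of the 9 genes, ZEB1, ZEB2, PRRX1 and ELF3, and was searched in the 250 bases before each listed start. The motifs were CAGGTG, the E-box that ZEB and SNAIL proteins bind, and AACCNGTT, bound by grainyhead-like factors, each on both strands. CAGGTG is present in 17.5% of all 35116 such windows and AACCNGTT in 1.49%. ELF3, the called gene with the highest level, holds 1 E-box, whose first base lies 120 bases before the start, and ZEB1 holds E-boxes in 2 of its 7 windows. ELF3 is shown as the called gene and ZEB1, by its most upstream window, as a gene whose own product binds the motif. The ELF3 start of this table lies inside the gene span given above. The single windows of ZEB2 and PRRX1 hold no CAGGTG, and no window of the 4 genes holds AACCNGTT. The 2 windows read as follows, 5′ to 3′ on the gene's strand, with the E-box in capitals, which in ELF3 stands as its reverse complement.
ELF3 (chr1:202010337-202010586, plus strand): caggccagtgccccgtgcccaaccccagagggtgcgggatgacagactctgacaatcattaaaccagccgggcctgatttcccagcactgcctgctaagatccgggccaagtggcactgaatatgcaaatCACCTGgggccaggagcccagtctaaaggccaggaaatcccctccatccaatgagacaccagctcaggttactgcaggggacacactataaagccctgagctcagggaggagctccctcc
ZEB1 (chr10:31318167-31318416, plus strand): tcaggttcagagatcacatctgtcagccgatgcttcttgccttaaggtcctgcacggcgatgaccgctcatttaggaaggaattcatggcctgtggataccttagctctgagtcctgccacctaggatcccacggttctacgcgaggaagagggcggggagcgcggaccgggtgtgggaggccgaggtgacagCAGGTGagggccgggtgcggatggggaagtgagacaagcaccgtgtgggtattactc
A match is a description of these letters and does not show binding.

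The genes around the 9 were described through 8 lists, from general knowledge, of their partners and targets. Counts refer to members with a mean of at least 1 FPKM and are to be read against the 33.3% of tested genes called higher and 41.3% called lower, with a median log2 difference of -0.06 (0.01 with the length correction, where 70.1% of 11965 genes were called, 34.7% higher and 35.4% lower).

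Of 13 tested other mesenchymal transcription factors (17 listed), 5 rose, 5 fell and 3 were not called, with a median of 0.10. FOSL1, an AP-1 subunit, rose 1.91-fold from 130 ± 3.35 to 248 ± 11.8 FPKM. GSC, the goosecoid homeobox gene, rose 2.22-fold, and the E-protein gene TCF3 rose from 10.9 to 13.6 FPKM, though it was -0.06 by TPM. SOX4, a transcription factor gene induced by TGF-beta, fell 1.75-fold, HMGA2, an architectural chromatin protein gene that induces SNAI1, fell 1.37-fold, and TCF4 fell 2.37-fold, a call lost with the length correction (-0.17). The list divided in direction, and by TPM it had 2 higher and 7 lower, against 7 and 3 after quantile normalization.

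Other epithelial regulators were lower more often than higher with the deposited values. Of 9 tested (18 listed), 1 rose, 6 fell and 2 were not called, with a median of -0.29 that was -0.11 with the length correction, where 2 were higher and 3 lower. The excess of falls depended on scaling, with 2 higher and 4 lower by median-ratio scaling and 2 higher and 2 lower after quantile normalization. KLF5, a zinc finger factor of basal epithelia, fell 1.79-fold from 45.1 ± 2.26 to 25.3 ± 1.69 FPKM, and the AP-2 genes TFAP2A and TFAP2C fell 1.61-fold and 1.38-fold, the latter with a call lost after quantile normalization (-0.12). KLF4 rose from 45.4 to 50.7 FPKM (log2 difference 0.16) but was -0.21 by TPM and lost its call after quantile normalization (0.05) and without siControl library 2. EHF, an ETS factor closely related to ELF3, was under the minimum and is named after its values were seen. It was at 1.07, 1.01 and 1.34 FPKM in siControl and at 0.2, 0.2 and 0.26 FPKM in siUSP32, a 5.18-fold fall (limma adjusted p = 4.55e-05), where ELF3 rose 1.14-fold.

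CDH1, the E-cadherin gene and the classical target of ZEB and SNAIL repression, was already low in siControl and lower still in siUSP32. It was at 0.44, 0.48 and 0.5 FPKM in siControl and at 0.01, 0 and 0.04 FPKM in siUSP32, with a log2 difference of -0.54 ± 0.03 (SE, limma adjusted p = 9.28e-06 in the fit with no minimum). With a pseudocount of 0.1 the log2 difference was -2.31, and the siControl mean was 28.4 times the siUSP32 mean, which rests on values within a few units of the last decimal given. CDH1 was called lower in each of the 15 alternatives that gave a value. Of 21 tested epithelial target genes (32 listed), 17 fell, 1 rose and 3 were not called, with a median of -0.82 (length-corrected -0.52, with 16 lower and 1 higher). ST14, the matriptase gene, fell 7.29-fold, from 14.4 ± 0.627 to 1.97 ± 0.320 FPKM. Its inhibitors SPINT1 and SPINT2 fell 4.29-fold and 2.59-fold. LLGL2, a polarity gene, rose from 4.51 to 5.76 FPKM, though it was -0.02 by TPM and lost its call without siControl library 2 or 3. EPCAM, the tight junction gene OCLN and the mucin gene MUC1, named after their values were seen, fell 2.48-fold, 3.9-fold and 5.68-fold, while the claudin genes CLDN3 (8.21 and 8.10 FPKM) and CLDN7 (4.71 and 4.89 FPKM) were not called and were likewise chosen later.

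**Figure D3:**
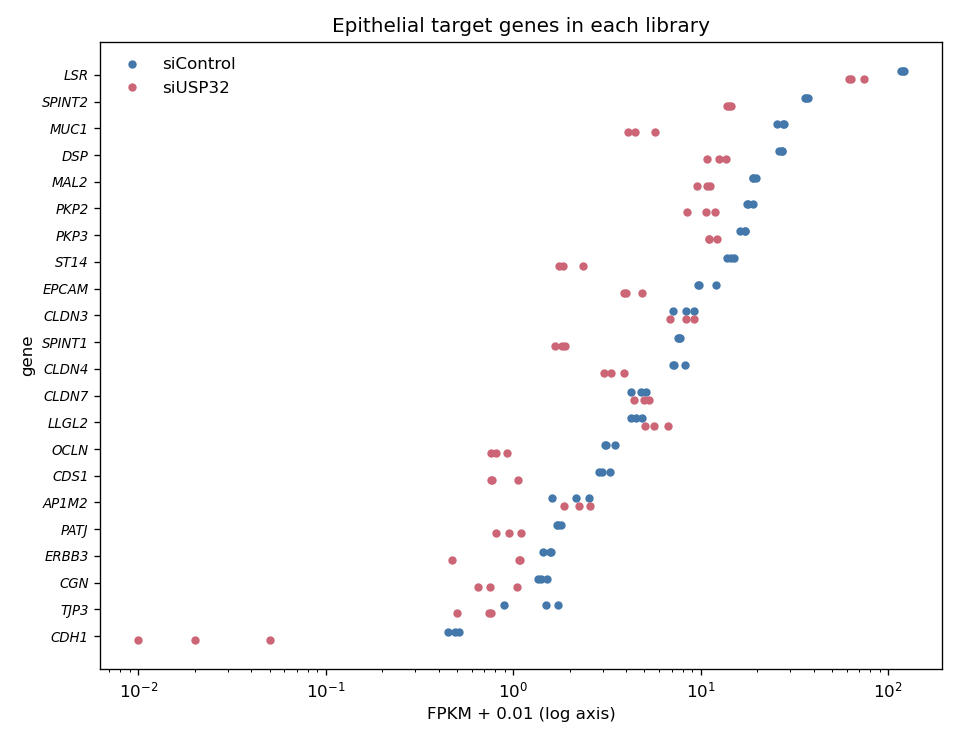
FPKM + 0.01 on a log axis of CDH1 and of the 21 tested epithelial target genes in each library (blue siControl, red siUSP32), ordered by siControl mean. Most red points lie left of the blue ones, with the widest gaps for CDH1, ST14 and MUC1, while CLDN3, CLDN7 and AP1M2 overlap.

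Target genes on the mesenchymal side were also mostly lower, with wider differences. Of 14 tested mesenchymal target genes (20 listed), 3 rose and 11 fell, and the median was -1.94 (-1.72 after length correction). FN1, the fibronectin gene, fell 39.6-fold, TNC, the tenascin gene, 19.7-fold and COL5A1, a collagen gene, 9.38-fold. VIM rose 1.53-fold, from 1085.2 ± 11.0 to 1657.9 ± 49.5 FPKM, and stayed higher by TPM (0.24) and after quantile normalization (0.10). TAGLN, which encodes an actin-binding protein of smooth muscle, rose 3-fold. S100A4 rose from 1683.3 to 2104.6 FPKM but its sign turned by TPM (-0.05), quantile normalization (-0.24) and the length correction (-0.31).

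Splicing regulators that work beside ESRP proteins divided. Of 12 tested (14 listed), 3 rose, 8 fell and 1 was not called (median -0.24, length-corrected -0.04). MBNL2, a muscleblind gene, fell 2.05-fold, RBFOX2, a regulator of mesenchymal exons, 1.56-fold and CELF2 1.95-fold, the last with a call lost after quantile normalization (-0.18) and the length correction (-0.06). PTBP1 (log2 difference 0.36), HNRNPM (0.40) and HNRNPA1 (0.41), which encode abundant nuclear RNA-binding proteins, rose, but they were -0.01, 0.03 and 0.04 by TPM and 0.10, 0.15 and -0.08 after quantile normalization. Of 13 tested genes whose transcripts ESRP proteins are known to splice (15 listed), 10 fell, 0 rose and 3 were not called (median -0.76, length-corrected -0.26, with 9 lower and 3 higher). CD44, a hyaluronan receptor gene, fell 3.15-fold, from 425 ± 1.89 to 135 ± 3.83 FPKM, and FGFR1, a fibroblast growth factor receptor gene, fell 2.96-fold. These are values per gene, and splice forms were not analysed here.

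The cofactors of the ZEB and SNAIL proteins were all measured. Of 18 corepressor genes 5 rose, 10 fell and 3 were not called, with a median of -0.18 that was -0.03 with the length correction, where 7 were higher and 4 lower. LOXL2, a secreted and nuclear lysyl oxidase that stabilises SNAIL, fell 7.11-fold from 110 ± 2.67 to 15.5 ± 0.514 FPKM. RCOR1, the CoREST scaffold gene, fell 2.07-fold and LIMD1, a LIM-domain gene, 2.08-fold, the latter with a call lost with the length correction (-0.13). The deacetylase gene HDAC1 rose 1.55-fold, while HDAC2 (0.29) and the methyltransferase gene PRMT5 (0.38) rose with values of -0.08 and 0.01 by TPM.

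Genes that set the stability of SNAIL or ZEB proteins also differed, whereas those proteins were not measured. Of 13 tested (15 listed), 3 rose, 8 fell and 2 were not called (median -0.25, length-corrected -0.18). SIAH2, a ubiquitin ligase gene, rose 2.32-fold, from 16.5 ± 0.341 to 38.2 ± 0.280 FPKM. PSMD14, a deubiquitinase subunit of the proteasome, rose 1.43-fold, and USP11 rose from 77.9 to 94.1 FPKM but was -0.10 by TPM. The ubiquitin ligase substrate receptors BTRC, FBXO11 and FBXL5 fell 1.65-fold, 1.72-fold and 1.35-fold.

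**Figure D4:**
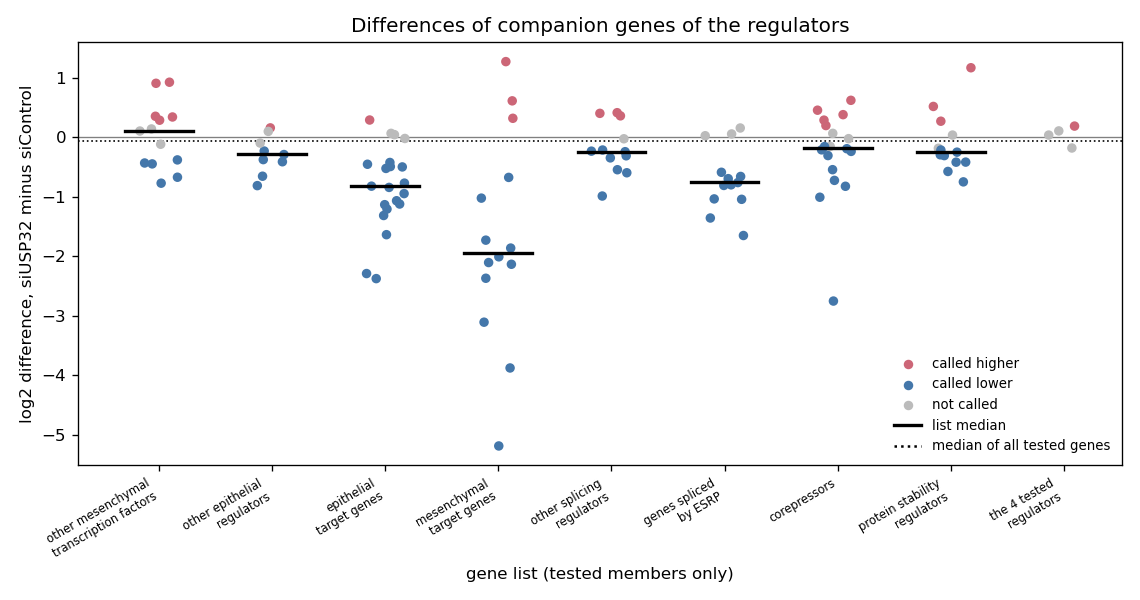
Log2 differences (siUSP32 minus siControl) of the tested genes of 8 lists and of the 4 tested regulators, coloured by call, with bars for list medians and a dotted line for the median of all tested genes (-0.06). The regulators lie within 0.19 of 0, while the mesenchymal target genes reach -5.19.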

How the data were processed

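The deposited values are FPKM per gene with 2 decimals, computed by the authors, per the file headers, in 1 table per library (3 siControl, 3 siUSP32). Per the submitters' processing notes, GRCh38.p13 was used. For the aligner, counter, annotation and use of strand the record is: not given in the sources used here. Therefore reads of ZEB1, ZEB2, ELF3 and OVOL1 cannot be told from those of overlapping antisense genes.

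FPKM are not counts, so log2(FPKM + 1) was compared with limma 3.58.1 (R 4.3.3, mean-variance trend, no covariate, 2-sided) over the 12003 genes with a mean of at least 1 FPKM, and over all genes for those below it. Exact permutation tests are 2-sided. The fit was checked on simulated data. Transcript lengths and locations came from GENCODE 29 (GRCh38), and the length correction was a loess curve (span 0.5). Named were the 9 genes, CDH1, VIM, USP32, from each list the most significant calls (3 in each direction at most), and 2 genes most like each called gene of the 9 that was over the minimum. A gene that this rule names is not reported here. Further genes are said to be chosen later. The 9 genes and the lists were chosen with earlier results of these data known, and the ratios after seeing the values. TWIST1, COL1A2, TMEM30B and PGR were not analysed here.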

Additional observations from a re-analysis of the deposited data

How the results depend on the processing

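Over all genes, the count called was 6645 to 10068 in 16 alternatives, against 8957 of 12003 (74.6%). Both ends come from settings that test another number of genes. The 6645 is at a minimum of 5 FPKM, and the 10068 with no minimum is 57.1% of 17637 genes. Of the 9 genes 6 were called by TPM and 2 or 3 in the other alternatives, against 2. All 6 were called lower by TPM, as were 7462 of 12003 tested genes. By TPM, ZEB1 (-0.28) and ELF3 (-0.18) were called lower, the reverse of the signs of the deposited values, and calls were gained by ZEB2 (-0.21), SNAI2 (-0.51) and PRRX1 (-0.14). After quantile normalization ZEB1 (0.37) and SNAI1 (0.50) gained a call, and ELF3 (0.09) and ESRP1 (-0.13) lost theirs. The length correction gave calls to ZEB1 (0.39) and SNAI2 (-0.33). Array weights gave one to SNAI2 (-0.23). Causes were not tested.

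The replicate block gave 8995 calls, and PRRX1 gained its call there (-0.09, limma adjusted p = 0.0469). Whether the numbers pair the libraries is not stated. Deviations of same-numbered libraries from their group means correlated at -0.077, 0.071 and 0.119 over tested genes. In these values siControl 2 and 3 correlated best with the siUSP32 library of the same number, and siControl 1 with siUSP32 2 (0.083). With deviations from means of 3 libraries, such weak correlations cannot decide whether the libraries are paired. With each library left out in turn, SNAI2 ranged from -0.23 to -0.12 and PRRX1 from -0.12 to -0.06, with the calls named in the results. ELF3 (0.17 to 0.21) and ESRP1 (-0.36 to -0.27) kept theirs. Where the lone change of GRHL2 was left out, it gave no value, and genes under 1 FPKM got no length-corrected value, since the correction has no meaning near 0. Split by direction, calls were 1723 higher and 7462 lower by TPM, 3577 and 3068 at a minimum of 5 FPKM, and 5253 and 3601 after quantile normalization. Median-ratio scaling lowered the count of fallen corepressors from 10 to 5, splicing regulators from 8 to 4 and stability regulators from 8 to 5, and quantile normalization the last to 3. Unknown depth limits what can be said of PRRX1, OVOL1 and GRHL2.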
